A study of Rattus norvegicus with 18 samples.

Results

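The miR-290 cluster is a short stretch of rat chromosome 1 that encodes a run of miRNA hairpins, and 6 of its mature miRNAs are rows of the 599 rat miRNAs measured here. The rows are rno-miR-291a-3p, rno-miR-291b, rno-miR-292-3p, rno-miR-292-5p, rno-miR-293-5p and rno-miR-295-3p, where rno stands for rat and is left out from here on. They were taken by name, after their scarce levels in these libraries had been seen, so their levels and the differences between groups are given below as a description, and no test of them is used as support. Small RNA from heart tissue was sequenced in 18 libraries, 6 from each of 3 groups. WKY libraries came from Wistar Kyoto rats, given as normal. SHR libraries came from spontaneously hypertensive rats, given as hypertension, and QDG libraries from rats of the SHR strain that had been given QDG. The design text says that animals received NS or QDG, and neither abbreviation is spelled out. The sources used here give neither the age of the animals nor the dose, and they name no allele or transgene. Whether each library came from a separate rat is not stated per library, and the spread between libraries may in part be technical.

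miR-290 cluster miRNAs are cut from a common primary transcript and are known as the main miRNAs of mouse embryonic stem cells, where they promote the cell cycle and restrain differentiation. Their transcription falls as embryonic cells differentiate, and adult heart muscle is not a tissue they are known for. A miRNA finds its target messages mainly through its seed, bases 2 to 8, so members with the same seed are expected to reach overlapping sets of messages.

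The mature sequences are shown because the members fall into 2 kinds by their first bases. All are written 5′ to 3′ from RefSeq, build GRCr8, with the seed in capitals. 6 of 6 members were matched by name.
miR-293-5p: aCUCAAACugugugacacuuu
miR-292-5p: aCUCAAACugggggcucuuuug
miR-291a-3p: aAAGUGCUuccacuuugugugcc
miR-291b: aAAGUGCAuccauuuuguuagu
miR-295-3p: aAGUGCUAcuacuuuugggugu
miR-292-3p: aAGUGCCGccagguuuugagugu

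miR-293-5p and miR-292-5p, both from the 5p arm, have the same seed, CUCAAAC. Of the 543 listed miRNAs with a RefSeq sequence, they are the 2 that contain these letters. The other 4 members share no whole seed with each other or with any other of the 543, but all 4 carry the letters AAGUGC starting at base 1 or 2. This hexamer, searched on the RNA strand itself, begins and ends within bases 1 to 8 in 9 of 543 listed miRNAs (1.66%). The 5 others are miR-17-5p, miR-20a-5p, miR-20b-5p, miR-93-5p and miR-106b-5p of the growth-promoting miR-17 family, in which it starts at base 3. The lengths of the members run from 21 to 23 bases, so their levels need no correction for length when they are set side by side.

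In RefSeq's GRCr8 annotation, 7 hairpins lie on the minus strand of chromosome 1 within 2163 bases, chr1:74877973-74880135, and no other hairpin of the RefSeq miRNA table lies within 50 kb on either side. Mature miR-291a-3p is at chr1:74879767-74879789, miR-292-5p at chr1:74879518-74879539, miR-292-3p at chr1:74879478-74879500, miR-291b at chr1:74879204-74879225 and miR-293-5p at chr1:74878501-74878521. miR-295-3p is annotated at chr1:82352201-82352222 on the plus strand, in the hairpin Mir295-2. The hairpin Mir295-1 inside the cluster is identical to Mir295-2 base for base, so reads of miR-295-3p cannot be assigned to one of them. The locus has 11 mature names in all, and the other 5, miR-290, miR-291a-5p, miR-293-3p, miR-294 and miR-295-5p, were not analysed here. The hairpins of the most abundant member and of the pair of arms compared below are shown with the listed mature arms in capitals.
Mir293: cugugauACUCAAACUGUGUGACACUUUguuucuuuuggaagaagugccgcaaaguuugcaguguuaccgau
Mir292: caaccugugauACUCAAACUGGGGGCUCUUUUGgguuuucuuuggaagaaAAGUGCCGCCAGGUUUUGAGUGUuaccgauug

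Levels are in RPM, reads scaled to 1000000 of the authors' divisor, a number of reads particular to each library that lay between 4449279 and 7403775. The sources used here do not explain this divisor. It is smaller than the reads over all listed miRNAs, so RPM values sum to more than 1000000 in a library and are no shares of its reads. A single read was worth 0.135 to 0.225 RPM, and every deposited value could be read back as a whole number of reads. Reads over all listed miRNAs numbered 6420666 to 10169581 per library. The heart muscle list (miR-1-3p, miR-1b, miR-133a-3p, miR-208a-3p and miR-499-5p) summed to between 487141 and 620053 RPM over the 18 libraries, which checks the labelled tissue. SHR replicate 5 stood apart from the other libraries on the second principal component and WKY replicate 1 on the third.

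Nearly all reads of the cluster came from rats of the SHR strain. The 6 members together had 3 reads in the 6 WKY libraries, 152 in the 6 SHR libraries and 142 in the 6 QDG libraries. Their summed level averaged 0.0993 ± 0.110 RPM in WKY, 4.40 ± 2.12 RPM in SHR and 4.29 ± 1.49 RPM in QDG (SD, n = 6 each). No WKY library held more than 1 read of the cluster, and no SHR or QDG library held fewer than 9. The groups thus did not overlap. The ratio of pooled levels was 47.1 for SHR to WKY, with a 95% interval of 15.8 to 231, and 46.3 for QDG to WKY, with an interval of 15.5 to 227. These intervals are exact binomial ones for the pooled reads and cover counting error only. Both ratios share the same WKY reads.

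**Figure D1:**
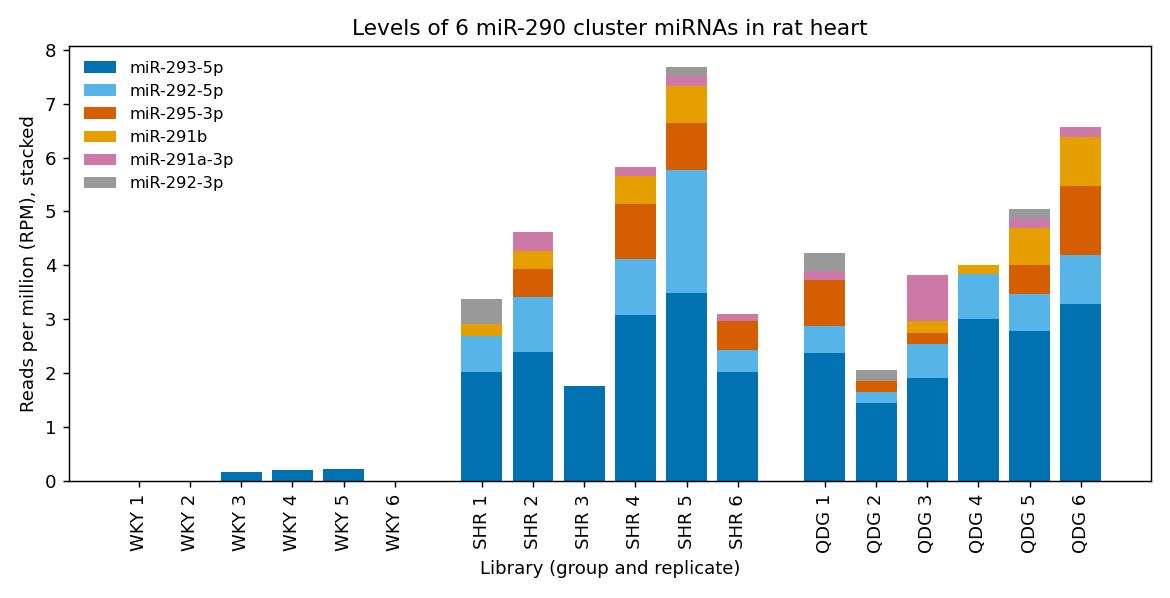
Level of each of the 6 members in RPM, stacked, in each of the 18 libraries (x axis, group and replicate). The WKY libraries reach at most 0.224 RPM, while the SHR libraries lie between 1.77 and 7.68 RPM and the QDG libraries between 2.06 and 6.57 RPM.

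miR-293-5p was the most abundant member. It had 0, 0, 1, 1, 1 and 0 reads in WKY replicates 1 to 6, 9, 14, 9, 18, 20 and 15 reads in SHR replicates 1 to 6, and 14, 7, 9, 18, 16 and 18 reads in QDG replicates 1 to 6. Every SHR and every QDG library lay above every WKY library. Its level averaged 0.0993 ± 0.110 RPM in WKY, 2.46 ± 0.681 RPM in SHR and 2.47 ± 0.696 RPM in QDG (SD, n = 6 each). From the pooled reads SHR had 26.3 times the WKY level (95% interval 8.71 to 130) and QDG 26.7 times (8.83 to 132), counting error only. With 2.46 RPM it ranked at place 319 of 599 in SHR, against place 517 in WKY.

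miR-292-5p, which has the seed of miR-293-5p, followed. It had 0 reads in 6 of 6 WKY libraries. In SHR it had 3, 6, 0, 6, 13 and 3 reads and in QDG 3, 1, 3, 5, 4 and 5 reads, in the order of replicates 1 to 6. Of the 12 SHR and QDG libraries only SHR replicate 3 lacked it, and SHR replicate 5, with 13 reads, held more than any other. The mean level was 0.901 ± 0.777 RPM in SHR and 0.632 ± 0.253 RPM in QDG (SD, n = 6 each). A count of 0 in WKY allows up to 3 reads over the group, or 0.0939 RPM. Folds against that limit use the pooled level of a group, its summed reads over its summed divisors, which was 0.902 RPM in SHR and 0.643 RPM in QDG. By these miR-292-5p stood at 9.61 times the WKY limit in SHR and 6.84 times in QDG. The limit allows for counting error in WKY alone. The SHR and QDG reads are taken as counted, so these folds and those of the next members are no lower bounds. For a single WKY library the same limit is 0.458 to 0.671 RPM, near the means of SHR and QDG, so 1 WKY library alone would not have set this miRNA apart.

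miR-295-3p had 0 reads in all 6 WKY libraries, 0, 3, 0, 6, 5 and 4 reads in SHR and 5, 1, 1, 0, 3 and 7 reads in QDG. It was seen in 9 of 12 SHR and QDG libraries, and since the other 3 had none these groups overlap with WKY. The mean level was 0.492 ± 0.429 RPM in SHR and 0.511 ± 0.478 RPM in QDG (SD, n = 6 each). The pooled levels of 0.524 RPM in SHR and 0.520 RPM in QDG were 5.58 and 5.54 times the WKY limit.

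miR-291b had 0 reads in WKY, 1, 2, 0, 3, 4 and 0 reads in SHR and 0, 0, 1, 1, 4 and 5 reads in QDG. It was detected in 8 of 12 SHR and QDG libraries. Its mean was 0.297 ± 0.280 RPM in SHR and 0.331 ± 0.382 RPM in QDG (SD, n = 6 each). The pooled levels of 0.291 RPM in SHR and 0.337 RPM in QDG were 3.10 and 3.58 times the WKY limit. Without QDG replicate 6 the QDG level was 2.35 times the limit.

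The remaining pair lay near the limit of detection. miR-291a-3p, the member with the seed AAGUGCU, had 0 reads in WKY, 0, 2, 0, 1, 1 and 1 in SHR and 1, 0, 4, 0, 1 and 1 in QDG. These 5 SHR and 7 QDG reads gave pooled levels of 0.146 RPM in SHR and 0.214 RPM in QDG, 1.55 and 2.28 times the WKY limit. Their exact Poisson intervals, for counting error, began at 0.0473 RPM in SHR and 0.0861 RPM in QDG. Both values lie below the WKY limit of 0.0939 RPM, so neither fold is a lower bound. Each fold also rested on 1 library: without SHR replicate 2 or QDG replicate 3 the group had 3 reads, which is the limit itself. miR-292-3p had 0 reads in WKY, 3 in SHR, from replicates 1 and 5, and 4 in QDG, from replicates 1, 2 and 5. Its SHR total is at the limit itself and its QDG total 1 read above it, so no fold is given. For this miRNA a difference between groups was not detectable at this depth.

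**Figure D2:**
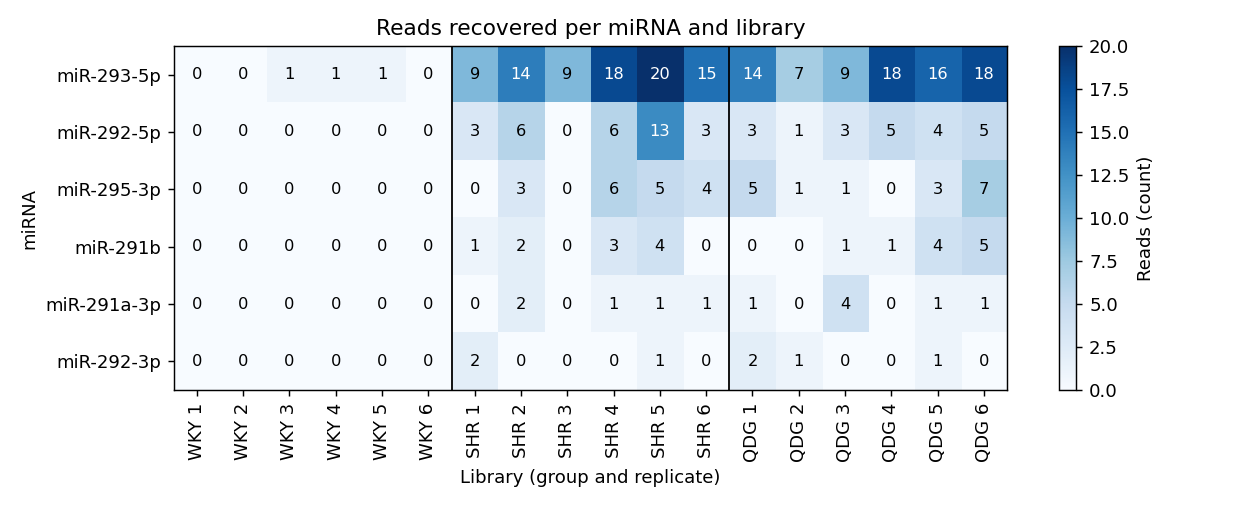
Reads of each member (rows) in each library (columns, group and replicate), with the number of reads in each cell and a colour scale from 0 to 20 reads. The WKY block holds 3 reads in all, each from miR-293-5p, and SHR replicate 3 holds reads of miR-293-5p alone.

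Within the SHR and QDG libraries the order of the members was steep. miR-293-5p took 167 of 294 reads, or 56.8% (95% exact binomial interval 50.9 to 62.5), miR-292-5p 17.7% (13.5 to 22.5), miR-295-3p 11.9% (8.43 to 16.2), miR-291b 7.14% (4.48 to 10.7), miR-291a-3p 4.08% (2.13 to 7.02) and miR-292-3p 2.38% (0.963 to 4.84). The interval of miR-293-5p lies clear of all others. Those of miR-292-5p and miR-295-3p, and of each later pair of neighbours in the order, overlap. The intervals are for counting error, and how well each sequence is captured in a library was not tested.

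Of the reads of the 6 members, most came from the 5p pair. The other arm of miR-293 was not analysed here, so the shares that follow are of these 6 members and not of the locus. Together miR-293-5p and miR-292-5p held 116 of 152 reads in SHR, 76.3% (95% exact binomial interval 68.7 to 82.8), and 103 of 142 in QDG, 72.5% (64.4 to 79.7). miR-292 is the hairpin with both arms listed. There the 5p arm had 52 reads and the 3p arm 7 over the 12 SHR and QDG libraries, so that 88.1% (77.1 to 95.1) of its reads were 5p. The 5p arm had more reads in 10 of these libraries and the arms tied in the other 2. In SHR the 5p arm held 91.2% (76.3 to 98.1) and in QDG 84.0% (63.9 to 95.5), intervals that overlap widely.

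Libraries of the SHR strain differed among themselves. The number of members seen ranged from 1 in SHR replicate 3, with 9 reads, to 6 of 6 in SHR replicate 5, with 44 reads, and in QDG replicate 5, with 29. The order did not follow depth: SHR replicate 6, the deepest library with a divisor of 7403775, had 23 reads of the cluster, and SHR replicate 3, with 5090816, had fewer than SHR replicate 1, with 4449279 and 15 reads. The variance of the members' summed reads was 6.36 times their mean in SHR and 3.39 times in QDG, where reads drawn at 1 rate in equally deep libraries would give a ratio near 1. For miR-293-5p alone the ratios were 1.45 and 1.60, and for miR-292-5p 3.83 and 0.657. Without SHR replicate 5 the mean summed level of SHR was 3.74 RPM, against 4.40 RPM with it.

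QDG and SHR, the comparison of rats of the hypertensive strain given QDG with the SHR group, overlapped in the level of the cluster. The pooled level in QDG was 0.982 times that in SHR for the members' sum (95% counting interval 0.776 to 1.24), 1.01 times for miR-293-5p (0.739 to 1.39), 0.712 times for miR-292-5p (0.389 to 1.28), 0.993 times for miR-295-3p (0.481 to 2.04) and 1.16 times for miR-291b (0.446 to 3.04). miR-291a-3p had 1.47 times (0.402 to 5.88) and miR-292-3p 1.40 times (0.237 to 9.57). Every interval spans 1, and for each member the SHR and QDG libraries overlapped. These are counting intervals, and a p or an interval that misses a difference does not show that the groups are alike. For miR-291a-3p, miR-291b, miR-292-3p and miR-295-3p the intervals leave room for changes of over 2-fold in either direction. With 1 library left out, the ratio of each member and of their sum fell on the other side of 1 in at least 1 case. The moves of over 1.5 times were miR-291a-3p to 0.737 without QDG replicate 3, miR-291b to 0.758 without QDG replicate 6, and miR-292-3p to 0.855 without QDG replicate 1 and to 3.66 without SHR replicate 1.

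**Figure D3:**
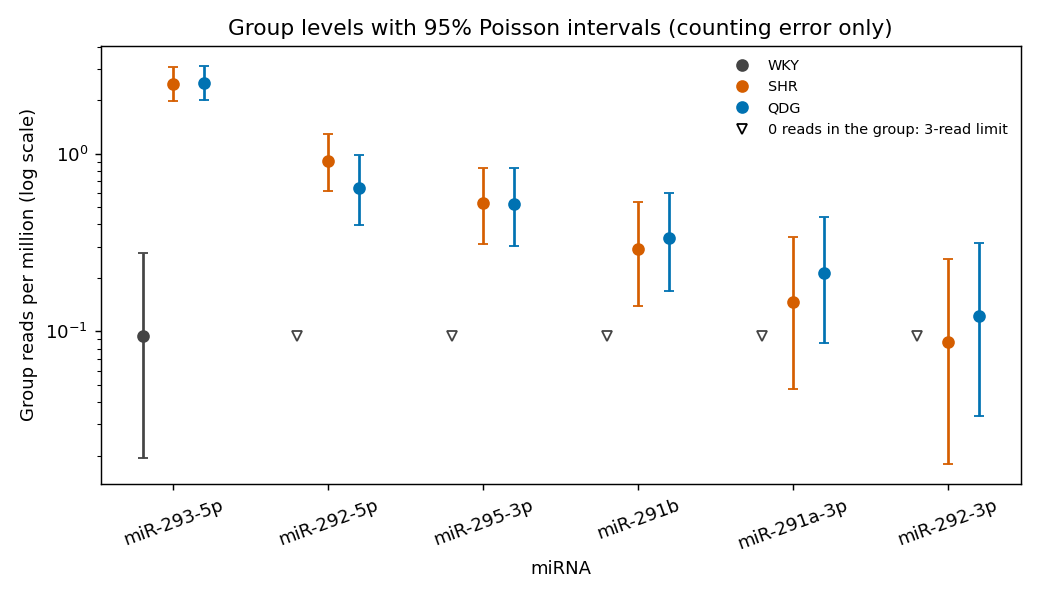
Pooled level of each member in WKY, SHR and QDG (reads of the 6 libraries in RPM, log scale). Bars are 95% exact Poisson intervals for counting error. Open triangles mark the 3-read limit of 0.0939 RPM where WKY had 0 reads. That limit lies below the end of the Poisson interval for 0 WKY reads, 0.115 RPM. The SHR and QDG intervals of each member overlap, and for miR-293-5p both lie above the WKY interval, which ends at 0.274 RPM.

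The fit over the whole table (limma on log2(RPM + 1), all 18 libraries, Benjamini-Hochberg adjusted p under 0.05) took the 410 miRNAs that reached 1 RPM in 6 or more libraries. Of the 6 members, 1 passed this filter, miR-293-5p, and it passed through the SHR and QDG libraries alone, so that it had to differ from WKY. Its log2 change on that scale was 1.64 ± 0.17 in SHR against WKY and 1.64 ± 0.17 in QDG against WKY (SE), and it was among the higher calls of both, which made up 8.05% and 7.32% of the miRNAs tested. Nothing is read from these calls, since the members were chosen on the same values. The pseudocount of 1 RPM holds the change well below the ratio of the reads. In QDG against SHR the log2 change of miR-293-5p was -0.00 ± 0.17 (SE; 95% interval -0.36 to 0.36). In that comparison 0 of 410 miRNAs (0%) were called with limma, with edgeR or with DESeq2, while 15 (3.66%) had an unadjusted limma p under 0.05.

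With no filter, 599 miRNAs could be fitted. limma then had 2 of 6 members, miR-293-5p and miR-292-5p, among the higher calls of SHR against WKY, and 6.18% of all miRNAs were such calls. In QDG against WKY it had the same pair, with 4.84% of all. edgeR on the recovered reads, which fits scarce counts without a pseudocount of this size, had 4 of 6 members higher in SHR against WKY (9.02% of all were higher) and 5 of 6 in QDG against WKY (8.51%). Those called in SHR were miR-293-5p, miR-292-5p, miR-295-3p and miR-291b, and QDG added miR-291a-3p. The median log2 change in limma without the filter was 0.44 over the members and -0.04 over all miRNAs in SHR against WKY, and 0.45 and -0.05 in QDG against WKY. In QDG against SHR these medians were 0.02 and 0.01.

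The near absence from 1 strain was uncommon in the table. Of 599 miRNAs, 9 (1.5%) had at least 10 reads in SHR and at most 3 in WKY, and 4 of these were members, miR-293-5p, miR-292-5p, miR-295-3p and miR-291b. The 5 others were miR-1298 (29 reads in SHR and 0 in WKY), miR-6216 (29 and 0), miR-196c-5p (15 and 0), miR-20a-3p (10 and 2) and miR-3566 (10 and 1), named after their values were seen. In the opposite direction 1 miRNA, miR-675-3p, had at least 10 reads in WKY, namely 16, and at most 3 in SHR, namely 1. For QDG against WKY the count was again 9 (1.5%), with the same 4 members, while 6 miRNAs (1.00%) had at least 10 reads in WKY and at most 3 in QDG. These 6 held no member. Every SHR library lay above every WKY library for 16 miRNAs (2.67%), among them miR-293-5p. Every QDG library lay above every WKY library for 18 (3.01%), among them miR-293-5p and miR-292-5p.

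**Figure D4:**
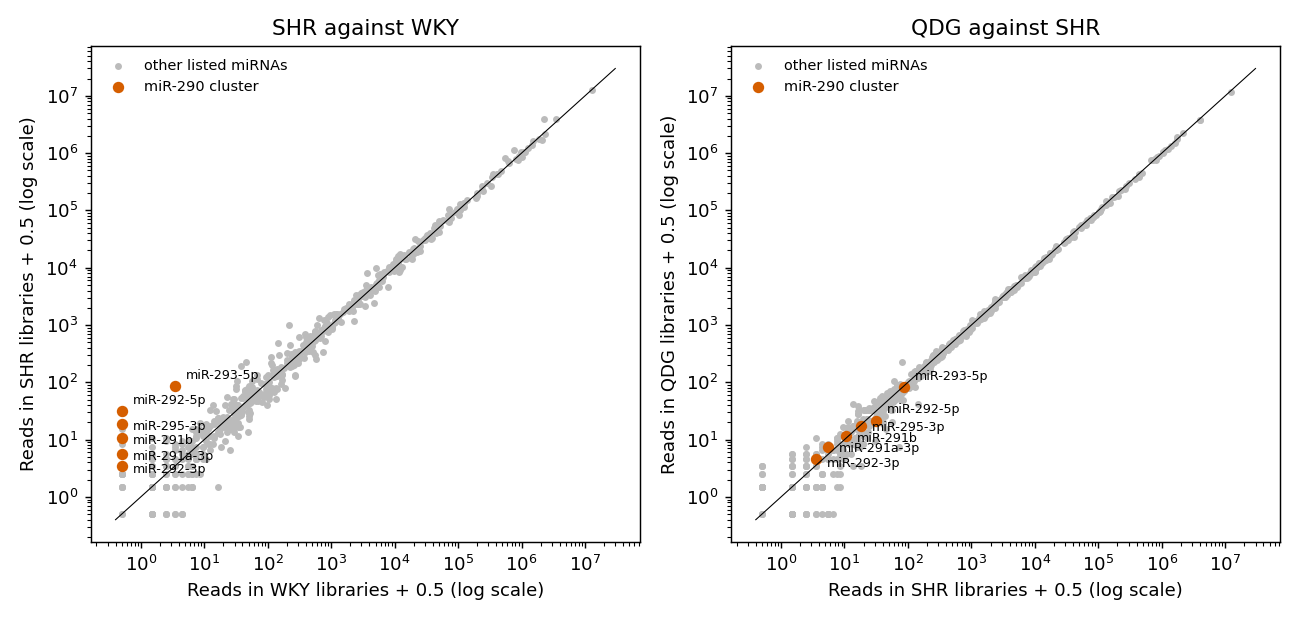
Reads of all 599 miRNAs summed over the 6 libraries of a group, plus 0.5, on log axes, for SHR against WKY (left) and QDG against SHR (right); orange points are the 6 members, grey points the other miRNAs, and the line marks equal reads. The members lie at the left edge in SHR against WKY, with 0 to 3 WKY reads, and near the line in QDG against SHR.

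The profile of the cluster over the 18 libraries was set beside those of the 134 other miRNAs whose total reads lay within 3-fold of the members' total. Likeness was the overlap of the profiles, each divided by its own sum, where 100% means the same share in every library. The median overlap was 61.2%. The highest were 83.8% for miR-135a-5p, 81.8% for miR-96-5p and 79.1% for miR-183-5p. miR-96-5p and miR-183-5p are encoded side by side and are best known from sensory cells. All 3 had more WKY reads than the 3 of the whole cluster, with 32 reads of miR-135a-5p against 105 in SHR and 103 in QDG, 38 of miR-96-5p against 190 and 223, and 114 of miR-183-5p against 272 and 352. Scarcer miRNAs such as miR-1298 and miR-6216, each with 0 WKY reads, fell outside the 3-fold range and were not compared.

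The miR-17 family guide strands, the listed miRNAs that also carry AAGUGC near their 5′ end, were far more abundant in all groups. Their sum averaged 1088 ± 149 RPM in WKY, 1163 ± 82.5 RPM in SHR and 1079 ± 143 RPM in QDG (SD, n = 6 each). None of the 5 was called by limma in any of the 3 comparisons. The most abundant was miR-20a-5p, with 442 ± 60.1, 488 ± 36.9 and 439 ± 64.1 RPM. miR-93-5p had 277 ± 43.6, 288 ± 33.4 and 271 ± 37.3 RPM, and miR-17-5p 242 ± 32.8, 254 ± 18.4 and 243 ± 37.0 RPM. The 4 members with this hexamer made up at most 0.198% of the reads of the 9 miRNAs in any library. Among the 543 listed miRNAs with a RefSeq sequence, none of the abundant ones was close to a member in sequence. The nearest outside the cluster differed from each of the 4 by 9 edits (substitutions, insertions or deletions). From miR-292-5p the nearest differed by 8 and from miR-293-5p by 7. For both 5p members that nearest miRNA was miR-495, which shared its distance to miR-293-5p with miR-154-3p. Members differed from each other by 6 edits or more. The other mature miRNAs of the locus were not compared. The sources used here do not say how the authors treated reads that match more than 1 entry. The equal values of miR-466b-2-3p and miR-466b-4-3p, given below, bear on this.

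Of other miRNAs known from early embryos or germ cells, the miR-302 and miR-367 cluster of pluripotent cells was not analysed here. The 6 listed miR-466 entries of the Sfmbt2 cluster, known from mouse embryonic stem cells and placenta, summed to 23.3 ± 3.62 RPM in WKY, 24.9 ± 2.96 RPM in SHR and 24.3 ± 3.35 RPM in QDG (SD, n = 6 each), with 0 of 6 called by limma in each comparison. The most abundant was miR-466c-5p, with 16.9 ± 2.52, 17.0 ± 2.36 and 17.2 ± 2.29 RPM. miR-466b-2-3p and miR-466b-4-3p had equal means and SDs in each group, with means of 1.37, 1.99 and 1.74 RPM. The sum may therefore count the same reads under both entries. The 16 listed miRNAs of an X-linked cluster best known from testis had another pattern. Their sum ranged from 0.495 to 24.9 RPM in WKY, from 0.342 to 72.7 RPM in SHR and from 0.912 to 22.0 RPM in QDG. The high libraries were 5 of 6 in WKY, SHR replicate 5 and QDG replicate 1. WKY libraries had up to 163 reads of that cluster and at most 1 read of the miR-290 cluster. SHR replicate 5, with 416 reads of the testis cluster, also had the most reads of the miR-290 cluster. Without that library the mean summed level of the miR-290 cluster in SHR was the 3.74 RPM given above. Whether the levels of the testis cluster and of the miR-290 cluster are linked was not tested, in SHR replicate 5 or in any other library.

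Markers of other cell types were set beside the cluster. Summed levels of the endothelial pair miR-126a-3p and miR-126a-5p ranged from 88331 to 127217 RPM in WKY, 114087 to 126819 RPM in SHR and 115468 to 129834 RPM in QDG. Those of the smooth muscle pair ranged from 47861 to 73172 RPM, 42421 to 64054 RPM and 51834 to 73141 RPM, and those of 4 leukocyte miRNAs from 1066 to 1530 RPM, 1182 to 1368 RPM and 1149 to 1385 RPM. For 5 epithelial miRNAs the ranges were 56.3 to 77.0 RPM, 65.2 to 89.8 RPM and 59.7 to 82.2 RPM, and for 2 red blood cell miRNAs 311 to 867 RPM, 467 to 768 RPM and 547 to 948 RPM. For each of these lists the 3 ranges overlapped. Of single markers, limma called miR-200c-3p of the epithelial list higher in SHR against WKY, with 35.3 ± 5.61 RPM in WKY and 45.4 ± 5.38 RPM in SHR. In that list miR-200a-3p, miR-200b-3p and miR-429 had lower means in SHR than in WKY, and miR-141-3p a slightly higher one. The same fit called miR-142-3p of the leukocyte list higher in QDG against WKY, with 222 ± 52.7 RPM in WKY and 282 ± 24.9 RPM in QDG. There miR-142-5p and miR-223-3p had slightly higher means in QDG, and miR-150-5p a lower one, 662 against 804 RPM in WKY. In the heart muscle list miR-1-3p was called higher in both, with 70589 ± 8617 RPM in WKY, 117240 ± 10227 RPM in SHR and 114140 ± 7938 RPM in QDG (SD, n = 6 each). Its other members, miR-1b, miR-133a-3p, miR-208a-3p and miR-499-5p, had lower means in SHR and in QDG than in WKY and were not called. The part of these cell types in the levels of the cluster was not tested. In bulk tissue, fewer cells that make a miRNA and less of it per cell cannot be told apart.

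Each group holds 1 strain and 1 condition. In SHR against WKY the strain, its blood pressure and any handling that followed group cannot be told apart.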

How the data were processed

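Small RNA libraries were made from heart RNA with the NEBNext small RNA kit, per the labels' protocols. FastQC, TopHat2 and limma are listed in the submitters' processing notes, without versions or roles, and the sources used here state no genome build or miRNA annotation. The deposited values are normalized read counts, per the file headers, treated as a signal per mature miRNA. Over the 18 files, 10782 of 10782 values were within 0.01 of a whole multiple of their file's smallest value, which was taken as 1 read. Groups came from the library titles. The tests used limma 3.58.1 (R 4.3.3) with a variance trend and robust moderation on log2(RPM + 1), without covariates; edgeR 4.0.16 and DESeq2 1.42.0 on the recovered reads were alternatives. Both limma and edgeR were tested on simulated data, in which the changed miRNAs were drawn from those that pass the filter. That test does not bear on the fits without the filter. The planned test assumed values in RPM, and the deposited unit allowed it. Alternatives were the pseudocount, the filter, TMM scaling, a replicate block and each library left out. The members and lists were chosen with earlier results of these data known. Named miRNAs were the members, the list miRNAs, the 3 nearest profiles and the nearest sequences.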

Additional observations from a re-analysis of the deposited data

Results flagged for a closer look

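miR-291a-3p stood at 0.848 RPM in QDG replicate 3, from 4 reads, apart from the other 5 QDG libraries, which had 0 or 1 read each. Of the 16 sets of 6 libraries examined (each member and the members' sum in each group, where values varied), this was the 1 in which the highest or lowest library stood this far from the rest. A rate of about 1 in 20 by chance would hold for smoothly spread, independent values. These sets are low counts with ties, and each sum contains its members, so their rate by chance is not known.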

How the results depend on the processing

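The direction of miR-293-5p against WKY was the same under each alternative in which it could be fitted. WKY libraries had at most 1 read of it and each SHR or QDG library at least 7, so no setting could turn the direction. That sameness is therefore no support. The log2 change of miR-293-5p in SHR against WKY was 1.56 to 1.70 with 1 library left out and 1.53 to 4.78 under the other settings. The higher values were those with a pseudocount of 0.1 RPM, edgeR or DESeq2. In QDG against WKY these ranges were 1.57 to 1.73 and 1.61 to 4.76, and in QDG against SHR -0.07 to 0.09 and -0.02 to 0.08. With at least 1 RPM required in all 18 libraries it was not tested. Over the whole table limma called 95, 0 and 73 miRNAs in SHR against WKY, QDG against SHR and QDG against WKY; other settings gave 86 to 98, 0 and 69 to 87, and leaving out 1 library 81 to 106, 0 and 64 to 81. Same-numbered libraries of WKY with SHR, WKY with QDG and SHR with QDG had deviations from the group means correlated over 0.1 in 2, 4 and 1 of 6 pairs, so the numbers were not taken to pair the animals. With the replicate number as a block the counts were 93, 0 and 77, and 1.64 for miR-293-5p in SHR against WKY. Under TMM scaling 52 of 95 calls of SHR against WKY were higher, against 33 of 95, and 50 of 82 against 30 of 73 in QDG against WKY. The members' mean summed level was 0.0744 to 0.119 RPM in WKY, 3.74 to 4.92 RPM in SHR and 3.83 to 4.73 RPM in QDG with 1 library left out, and 0.0907, 4.50 and 4.32 RPM under TMM. Depth limits what can be said of miR-291a-3p and miR-292-3p, with 12 and 7 reads in all. The unfiltered edgeR fit and the fits without both WKY replicate 1 and SHR replicate 5 were chosen after seeing the data.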
